A study of Mus musculus with 37 samples.

Results

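The lactate dehydrogenases Ldha and Ldhb, the monocarboxylate transporters Slc16a1 (MCT1), Slc16a3 (MCT4), Slc16a7 (MCT2), Slc16a4 and Slc16a14, and Bsg (basigin), the chaperone that brings several of these transporters to the cell surface, are described here in hippocampal astrocytes. The 8 genes were chosen by symbol, mapped from the gene identifiers, and all 8 of the 8 were found among the 21975 genes of the tables. Slc16a4 was also picked out by the study from these same libraries, so its values are not independent evidence. The study listed it as upregulated on the impact side in injured mice with seizures against those without. RNA was sequenced from astrocytes that had been pulled from dissociated hippocampus with ACSA-2 beads, an antibody against a surface protein of astrocytes (Atp1b2). The 20 mice were adult CD1 males in the methods of the study, while the labels call their genotype WT CD31. All had a craniectomy over the right parietal bone and a recording electrode. Sham mice (5) had no impact. The other mice received a controlled cortical impact (CCI), a severe unilateral contusion, and were called PTE+ (5 mice) when continuous EEG with video showed repeated post-traumatic seizures and PTE- (10 mice) when it did not. Astrocytes were taken 4 months after surgery from the hippocampus on the side of the impact (ipsilateral) and on the other side (contralateral), each in its own library, and all tissue was dissociated in a solution with the glutamate receptor blockers AP5 and CNQX. There were 20 contralateral libraries (5 PTE+, 10 PTE- and 5 sham) and 17 ipsilateral libraries (4, 8 and 5), and both sides were available for 17 mice. By the study's histology a severe impact left little hippocampus on that side, mostly posterior, which limits what an ipsilateral library of an injured mouse can represent.

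Lactate dehydrogenase interconverts pyruvate and lactate as a tetramer of Ldha and Ldhb subunits. Ldha-rich enzyme is the form classically linked to lactate production and Ldhb-rich enzyme the form linked to lactate use. Monocarboxylate transporters carry lactate, pyruvate and ketone bodies across the membrane together with a proton, and in the brain the textbook account places MCT1 in astrocytes, oligodendrocytes and endothelium, MCT4 in astrocytes and MCT2 in neurons. This traffic is the basis of the astrocyte to neuron lactate shuttle. Basigin is needed at the membrane by MCT1 and MCT4 and is also a major protein of brain endothelial cells.

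The starts of Ldha, Ldhb, Slc16a1 and Slc16a3 are shown because Ldha and Slc16a3 are textbook targets of hypoxia-inducible factor, and their partners Ldhb and Slc16a1 stand beside them. The sequences are the 250 bases before the RefSeq start, on the gene's own strand, 5′ to 3′, from build GRCm38.p6. Capitals mark ACGTG or its reverse complement CACGT, 1 form of the core of the hypoxia response element. Where both overlap they read CACGTG. Forms with another first letter, such as GCGTG, were neither marked nor counted. Of the 2 starts listed for Ldha the upstream one is printed, and the window of the other held no match.
Ldha, chr7:46845554-46845803, plus strand: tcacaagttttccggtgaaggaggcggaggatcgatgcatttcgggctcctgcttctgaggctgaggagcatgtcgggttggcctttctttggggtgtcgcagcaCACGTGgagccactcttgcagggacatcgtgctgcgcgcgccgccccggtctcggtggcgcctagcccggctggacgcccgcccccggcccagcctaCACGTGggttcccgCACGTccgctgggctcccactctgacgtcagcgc
Ldhb, chr6:142507958-142508207, minus strand: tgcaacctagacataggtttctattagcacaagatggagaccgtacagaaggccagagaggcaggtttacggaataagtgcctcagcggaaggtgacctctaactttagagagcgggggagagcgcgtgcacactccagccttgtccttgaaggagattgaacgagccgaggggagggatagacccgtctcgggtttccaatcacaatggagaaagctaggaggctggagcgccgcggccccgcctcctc
Slc16a1, chr3:104638414-104638663, plus strand: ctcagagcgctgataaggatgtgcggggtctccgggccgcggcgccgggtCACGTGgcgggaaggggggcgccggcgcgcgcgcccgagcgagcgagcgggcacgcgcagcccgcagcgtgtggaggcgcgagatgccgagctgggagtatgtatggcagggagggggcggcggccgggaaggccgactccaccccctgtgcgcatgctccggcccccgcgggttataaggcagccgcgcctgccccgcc
Slc16a3, chr11:120948817-120949066, plus strand: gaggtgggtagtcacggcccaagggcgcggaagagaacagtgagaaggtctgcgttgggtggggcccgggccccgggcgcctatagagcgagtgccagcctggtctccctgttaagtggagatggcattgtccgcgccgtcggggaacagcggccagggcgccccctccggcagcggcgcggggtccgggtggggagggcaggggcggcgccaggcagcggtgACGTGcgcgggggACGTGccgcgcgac
The Ldha window held 5 matches counted on both strands, Slc16a1 2 and Slc16a3 2, each CACGTG counting on both. The Ldhb window held none of this form, though its printed bases include gcgtg. Among 32851 RefSeq promoter windows of the same length, 16.6% held at least 1 match and 0.502% held 4 or more. Slc16a4 and Slc16a14 also held none, and 6 of the 8 members were in the table. These matches describe letters in a window and say nothing about binding in these cells.

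In build GRCm38 the protein-coding members lie at chr7:46841475-46855627 (Ldha, plus strand), chr6:142490249-142507957 (Ldhb, minus strand), chr3:104638668-104658462 (Slc16a1, plus), chr11:120948480-120960868 (Slc16a3, plus), chr10:125219270-125389465 (Slc16a7, minus), chr3:107291230-107312115 (Slc16a4, plus), chr1:84905898-84935134 (Slc16a14, minus) and chr10:79704491-79711969 (Bsg, plus). Libraries held 25371887 to 59846479 counts (median 46860387) and 9020 to 15545 genes with a count. The ipsilateral library of PTE- mouse a8_11 had the fewest, 9020 genes, and 2234 well-expressed genes were at or below 3 counts in it, so values without it stand beside the results it changes. The bead target Atp1b2 was present in every library (99.53 to 652.69 TPM, a level scaled to transcript length and to the library) and so was Aqp4, the astrocyte water channel (120.98 to 973.03 TPM). Markers of other cells were present too. The summed level of 7 endothelial markers ranged from 34.6 to 5598 TPM over the 37 libraries, with Ly6c1 the highest of them at a mean of 646 TPM, against 5909 to 21092 TPM for 10 astrocyte markers.

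Ldhb was the lactate dehydrogenase of these astrocytes at the level of mRNA. Its mean was 2873 TPM ± 575 (SD, n = 37 libraries), the 28th highest of the 21975 genes, against 569 TPM ± 148 for Ldha, which ranked 207. Ldhb exceeded Ldha in all 37 libraries, and the ratio of their TPM ranged from 2.37 to 13.6 with a median of 4.81. Ldha therefore supplied 16.7% ± 4.06 (SD, n = 37) of the summed TPM of both genes.

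The group means of that share lay between 15.8% and 17.8%. It was 17.8% ± 4.19 in contralateral PTE+ (n = 5), 16.6% ± 6.58 in contralateral PTE- (n = 10) and 15.8% ± 1.92 in ipsilateral sham libraries (n = 5). The lowest share, 6.84%, and the highest, 29.7%, were both in contralateral PTE- libraries, from mice a9_15 and a8_14. Over the contralateral libraries the CPM of Ldha and Ldhb were nearly unrelated (Spearman rho = 0.09, n = 20), whereas over the ipsilateral libraries the correlation was 0.71 (n = 17). Both values are descriptions, since CPM of one library share its depth and its mixture of cells.

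In contralateral libraries Ldha stood at 779.54, 453.11, 639.68, 328.26 and 716.89 TPM in PTE+ mice a8_10, a8_17, a9_17, a9_18 and a9_19, at a lowest 286.78, median 567 and highest 1000.57 TPM in PTE-, and at 782.80, 481.92, 613.56, 610.72 and 427.94 TPM in sham mice a8_15, a8_16, a9_10, a9_11 and a9_9. The 3 groups overlapped throughout, and both extremes were PTE-. In ipsilateral libraries PTE+ mice held 620.29, 607.87, 542.44 and 536.45 TPM, PTE- 315.39 at the lowest, 586 at the median and 616.93 at the highest, and sham mice 738.14, 554.15, 605.33, 462.15 and 748.59 TPM. The 2 highest ipsilateral levels were in sham mice, and the groups again overlapped. For PTE+ against PTE- the log2 fold change of Ldha was -0.12 (SE 0.24, edgeR p = 0.621, exact permutation p = 0.656) contralaterally and 0.00 (SE 0.26, edgeR p = 0.987) ipsilaterally. Both estimates are so near 0 that their sign depended on the settings.

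Ldhb in contralateral libraries was 2797.91, 3405.19, 2371.65, 1783.69 and 3115.62 TPM in PTE+, 2259.75, 2928 and 4025.64 TPM (lowest, median, highest) in PTE-, and 3248.64, 3139.24, 2920.03, 2728.82 and 2209.56 TPM in sham mice, in the same order of mice. In ipsilateral libraries it was 2938.18, 2710.37, 2485.55 and 3290.81 TPM in PTE+, 1884.95, 2503 and 3513.63 TPM in PTE-, and 4397.39, 3077.83, 2765.38, 2903.96 and 3490.39 TPM in sham mice. The lowest ipsilateral level was that of mouse a8_11, the highest that of sham mouse a8_15, and the groups overlapped. PTE+ and PTE- differed by -0.35 (log2, SE 0.26, edgeR p = 0.191) contralaterally and by -0.04 (SE 0.23, edgeR p = 0.853) ipsilaterally. In the ipsilateral comparison of PTE- with sham, Ldhb had a log2 fold change of -0.45 (SE 0.21, edgeR p = 0.0446, exact permutation p = 0.0940). Without mouse a8_11 it was -0.41 (edgeR p = 0.0598), and without sham mouse a8_15 it was -0.26 (edgeR p = 0.193). Leaving out any of 8 of the 13 libraries took its p above 0.05. Over the ipsilateral libraries Ldhb had a rho of 0.63 with the summed astrocyte markers and of -0.73 with 5 mural or fibroblast markers (n = 17). The astrocyte sum was 13782 TPM ± 4193 in PTE- (n = 8) and 18496 TPM ± 2799 in sham libraries (n = 5), with all 10 markers detected in both. The mural or fibroblast sum was 351 TPM ± 171 against 204.7 TPM ± 73.4, and a sum of 5 ependymal or choroid plexus markers was 2180 TPM ± 3540 against 322 TPM ± 313. The part of these cell types in the level of Ldhb was not tested.

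**Figure D1:**
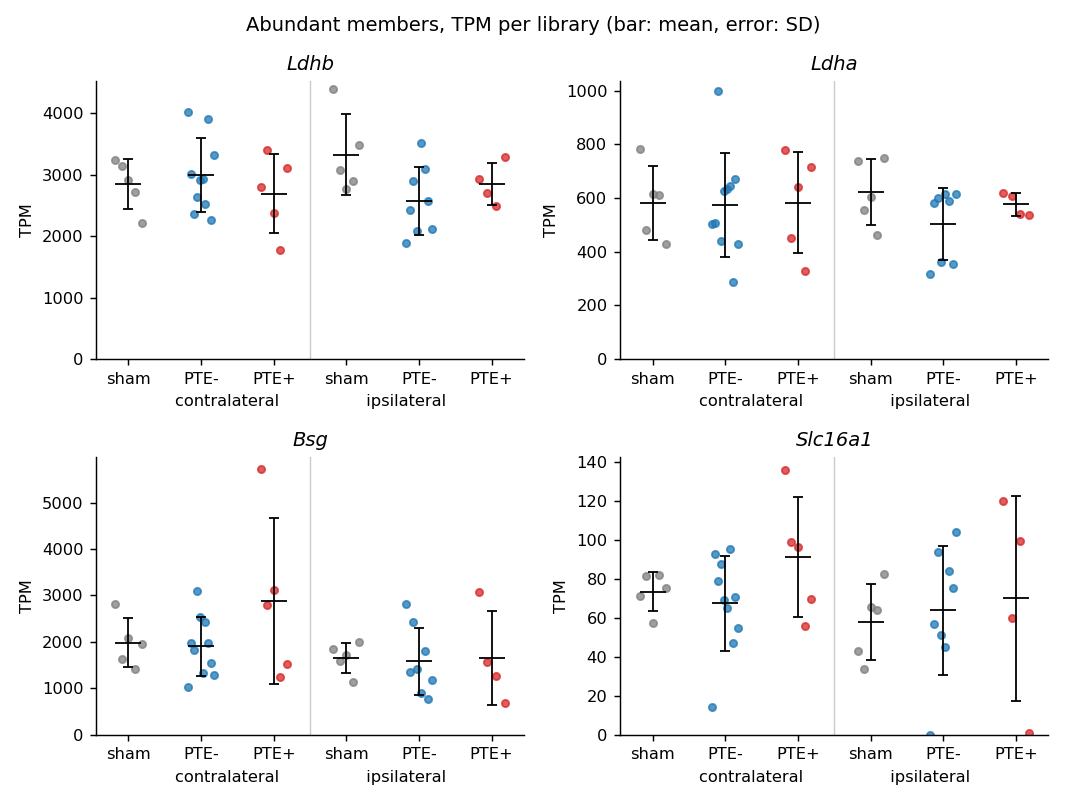
TPM of Ldhb, Ldha, Bsg and Slc16a1 in each library (points), with the mean and SD of each group (bar and error), by hemisphere and group of mice. The groups overlap in every panel, and the 2 ipsilateral Slc16a1 points near 0 are PTE- mouse a8_11 and PTE+ mouse a9_19.

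Slc16a1 was the leading transporter. Its mean was 69.8 TPM ± 29.1 (SD, n = 37), and it was the highest of the 5 transporters in 36 of 37 libraries, with 80.3% ± 16.9 of their summed TPM. Slc16a4 followed at 11.9 TPM ± 13.9. Slc16a3, Slc16a7 and Slc16a14 were at 2.17, 1.90 and 1.47 TPM, and stood above the counting limit of 3 counts in 27, 16 and 11 of the 37 libraries. Slc16a4 stood above it in 27. Within a group of mice, Ldhb, Ldha and Slc16a1 kept this order with no overlap of their ranges in all 6 groups. Bsg stood above Ldha in all 37 libraries and next to Ldhb, and the ranges of Bsg and Ldhb overlapped in 5 of the 6 groups. The ranges of Slc16a3, Slc16a7 and Slc16a14 overlapped in each group, so that their order of means separates nothing. MCT4, the transporter that textbooks assign to astrocytes, was among the lowest of the set in these libraries.

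In the contralateral libraries Slc16a1 was at 135.97, 99.18, 96.19, 55.80 and 69.73 TPM in PTE+ mice, at 14.37, 70.0 and 95.23 TPM (lowest, median, highest) in PTE- mice and at 71.30, 81.50, 57.53, 82.01 and 75.35 TPM in sham mice. The 3 highest levels were in PTE+ mice, while the other 2 PTE+ libraries lay inside the range of the rest. The log2 fold change of PTE+ against PTE- was 0.39 (SE 0.26, edgeR p = 0.157, exact permutation p = 0.254). In the ipsilateral libraries PTE+ mice had 120.27, 59.91, 99.39 and 0.74 TPM, PTE- mice 0.03, 66.4 and 104.30 TPM and sham mice 43.17, 33.62, 65.69, 64.02 and 82.70 TPM. A pair of libraries was nearly without the transcript: PTE+ mouse a9_19 had 93 counts, where its contralateral library had 7565, and PTE- mouse a8_11 had 5 counts against 2455. The ipsilateral difference of PTE+ from PTE- was 0.07 (log2, SE 0.97, edgeR p = 0.942), and -0.09 without mouse a8_11.

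In that ipsilateral library of mouse a9_19 the summed endothelial markers were also at their lowest, 34.6 TPM, and Bsg was at 691.66 TPM, the lowest of all 37. That library of a9_19 also held 12912 genes with a count, against 14932 contralaterally. In it 258 well-expressed genes were at or below 3 counts, against 4 to 37 in the other ipsilateral PTE+ libraries. Ipsilateral libraries of PTE- mouse a8_14 and sham mouse a9_9 had more such genes (845 and 836), with Slc16a1 at 57.13 and 82.70 TPM. In the ipsilateral library of mouse a8_11 the endothelial sum was 1840 TPM. Whether endothelial RNA or the loss of other transcripts had a part in the level of Slc16a1 was not tested. Over libraries the correlation of Slc16a1 with the endothelial sum was 0.49 contralaterally (n = 20) and 0.28 ipsilaterally (n = 17), and with Bsg 0.68 and 0.16. In bulk samples like these, fewer cells of a type and less RNA per cell cannot be told apart.

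Slc16a7 encodes MCT2, a high-affinity transporter best known from neurons. In contralateral libraries it was at 6.63, 0.00, 4.34, 0.03 and 2.98 TPM in PTE+ mice a8_10, a8_17, a9_17, a9_18 and a9_19, between 0.00 and 0.30 TPM in the 10 PTE- mice, and at 3.59, 0.00, 0.00, 2.32 and 0.65 TPM in sham mice a8_15, a8_16, a9_10, a9_11 and a9_9. Thus 3 PTE+ and 3 sham libraries were above every PTE- library, and the rest overlapped with them. PTE+ exceeded PTE- by 4.53 (log2, SE 1.79, edgeR p = 0.0190, exact permutation p = 0.00999), and PTE- differed from sham by -3.87 (SE 1.75, edgeR p = 0.0384, exact permutation p = 0.0403). In the first comparison 1 of 8 members and 2.21% of all 14642 genes tested had an unadjusted p under 0.05, and in the second 1 of 8 and 1.54%. Without PTE+ mouse a8_10 the first fold change was 3.78 (edgeR p = 0.0544). The second lay between -4.85 and -3.26 with 1 mouse left out, and its edgeR p was above 0.05 in 8 of those 15 fits, up to 0.0928 without sham mouse a8_15.

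Contralaterally the neuronal markers had the same order of group means. The sum of 8 neuronal markers was 394 TPM ± 417 in contralateral PTE+ (97.3 to 1116 TPM), 145 TPM ± 52.8 in PTE- (79.9 to 221 TPM) and 298 TPM ± 277 in sham libraries (93.0 to 779 TPM), and all 8 were detected. Its correlation with Slc16a7 was 0.29 over contralateral and 0.56 over ipsilateral libraries. Among contralateral PTE+ libraries, that of mouse a8_10 had the highest Slc16a7, 6.63 TPM, and the lowest neuronal sum, 97.3 TPM. Ipsilaterally the neuronal sum was 420 TPM ± 310 in PTE+, 295 TPM ± 209 in PTE- and 202 TPM ± 155 in sham libraries. The means of Slc16a7 there had another order, 3.23, 4.22 and 0.508 TPM. The part of neuronal RNA in the level of Slc16a7 was not tested. TPM and counts also ordered the Slc16a7 libraries differently: contralateral sham mouse a9_9 had 251 counts and 0.65 TPM, while a9_11 had 29 counts and 2.32 TPM.

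On the ipsilateral side the order was another. Slc16a7 was at 12.80, 0.09, 0.00 and 0.01 TPM in PTE+ mice, at 0.00 to 21.47 TPM in PTE- mice and at 0.01, 0.00, 0.00, 2.53 and 0.00 TPM in sham mice, so that 1 PTE+, 3 PTE- and 1 sham library held nearly all of it and the groups overlapped. The log2 difference of PTE+ from PTE- was -0.47 (SE 2.51, edgeR p = 0.854). Between the hippocampi of PTE- mice Slc16a7 was higher ipsilaterally in 3 of 8 mice and equal in TPM in the other 5, with a log2 fold change of 5.73 (SE 2.24, edgeR p = 0.0152). With the mouse as a block this was 2.58 (edgeR p = 0.281), and the exact sign-flip permutation p was 0.219. The side difference of PTE+ against that of PTE- mice had an edgeR p of 0.0891 and an exact permutation p of 0.0566.

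Slc16a14, an orphan transporter of the family, was at or below 3 counts in 26 of the 37 libraries. Contralaterally it was at 5.77 TPM in PTE+ mouse a9_19 and at 0.00 in the other 4, at 0.28, 0.69 and 1.1 TPM in 3 of 10 PTE- mice and 0.00 in the rest, and at 3.68, 2.91 and 13.31 TPM in sham mice a8_15, a9_10 and a9_11 with 0.00 in the other 2. PTE- against sham gave -3.75 (log2, SE 2.17, edgeR p = 0.0975, exact permutation p = 0.0256). Ipsilaterally it was at 6.42 and 14.42 TPM in PTE+ mice a8_10 and a9_19 and 0.00 in a9_17 and a9_18, at 3 counts or fewer in all 8 PTE- mice, and at 3.51 and 2.34 TPM in sham mice a9_10 and a9_11 with 0.00 in the other 3. PTE+ was at least 118-fold above PTE- when PTE- was set to the limit of 3 counts per library, and at least 53.3-fold without the highest library, but 2 of the 4 PTE+ libraries lay at 0 with the PTE- ones. The edgeR p was 0.00146 (0.00301 without mouse a8_11) and the exact permutation p 0.0909, with 1 of 8 members and 1.75% of 14903 genes at an unadjusted p under 0.05. For PTE- against sham the edgeR p was 0.00602 (0.0109 without mouse a8_11), the exact permutation p was 0.128, and sham was at least 21.0-fold higher, or 12.8-fold without its highest library. There 2 of 8 members, this gene and Ldhb, were at an unadjusted p under 0.05, with 1.58% of all genes. Slc16a14 passed the filter on low counts through the 4 ipsilateral libraries above the limit, and 0 of these were PTE-. With 1 library left out it was still tested in only 11 of the 13 fits for PTE- against sham. Its edgeR p in these 2 ipsilateral comparisons are therefore given as description and not as support.

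The same mice carried Slc16a14 on both sides in part. Mice a9_19, a9_10 and a9_11 were above the limit in both libraries, 3 mice only contralaterally, 1 only ipsilaterally and 10 in neither. Between the hippocampi of PTE- mice the edgeR log2 fold change was -5.14 (p = 0.0332) although 2 contralateral libraries of those 8 mice were above the limit, and it was -1.97 (edgeR p = 0.306) with the mouse as a block and -4.51 (edgeR p = 0.0751) without mouse a8_11. Slc16a7 and Slc16a14 were the 2 of 8 members at an unadjusted p under 0.05 in that comparison, beside 4.56% of 15731 genes.

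Slc16a3, MCT4, the low-affinity transporter of glycolytic cells, was at 1.1, 0.38, 1.08, 2.88 and 3.24 TPM in contralateral PTE+, at 0.00, 0.22 and 8.63 TPM (lowest, median, highest) in PTE- and at 3.11, 0.00, 1.37, 0.00 and 0.68 TPM in sham mice. Ipsilaterally it was at 2.18, 0.75, 0.87 and 0.00 TPM in PTE+, at 0.00, 2.59 and 23.45 TPM in PTE- and at 0.40, 1.56, 2.36, 0.15 and 0.00 TPM in sham mice. The highest level was that of PTE- mouse a8_14, and its contralateral library was listed at 0. No comparison of Slc16a3 came under an unadjusted p of 0.05 (smallest edgeR p = 0.233, smallest exact permutation p = 0.243).

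**Figure D2:**
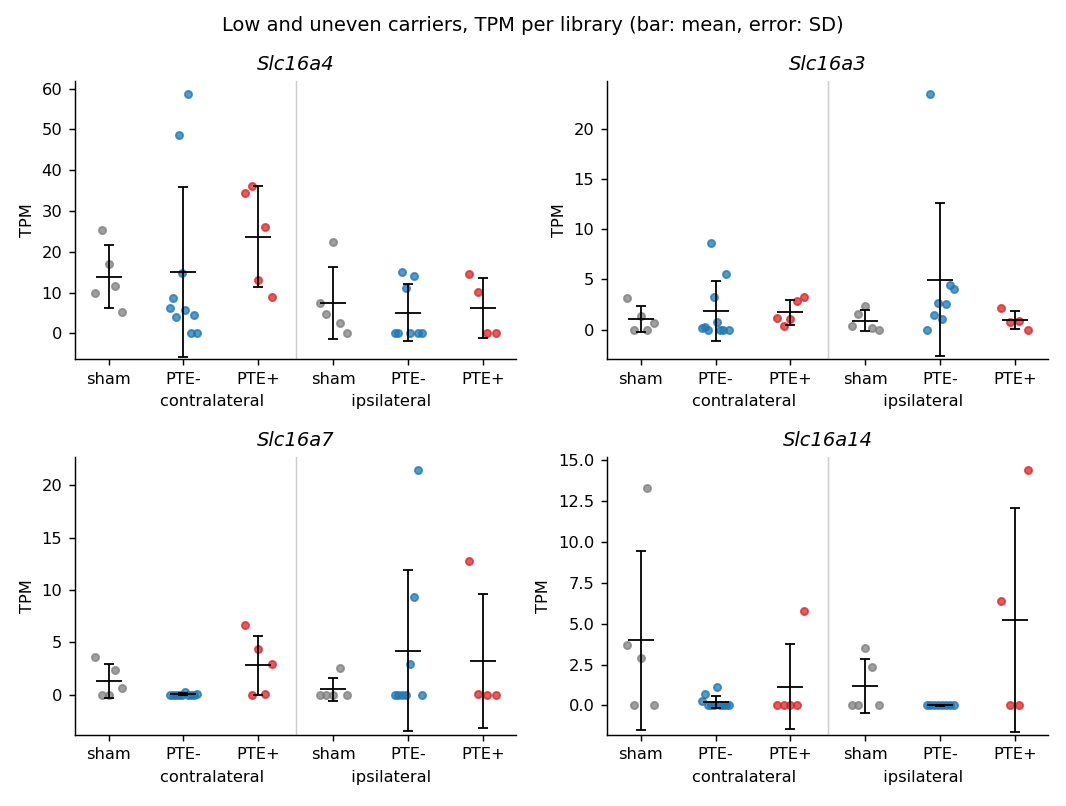
TPM of Slc16a4, Slc16a3, Slc16a7 and Slc16a14 in each library (points), with group mean and SD. Most points lie near 0, and single libraries such as ipsilateral PTE- mouse a8_14 for Slc16a3 (23.45 TPM) set the group means.

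Across the 6 comparisons between groups of mice no member passed an adjusted p of 0.05 in edgeR over all genes (their smallest adjusted p rounded to 1). The TPM ranges of the compared groups overlapped for all 8 members in all 6. Among all genes tested the ranges were apart for 0.0888% contralaterally and 0.228% ipsilaterally for PTE+ against PTE-, for 0.0341% and 0.0671% for PTE- against sham, and for 0.574% and 1.4% for PTE+ against sham, so that 0 of 8 members is near the background. Neither contralateral nor ipsilateral PTE+ against sham had a member at an unadjusted p under 0.05, where 1.23% and 1.66% of all genes were. The groups share libraries between these comparisons, so the differences are not independent of one another. Over all genes 1 contralateral gene passed the adjusted threshold for PTE+ against PTE-, 0.00683% of those tested, and none did in the other 5 comparisons in edgeR, where 180 to 261 genes had an unadjusted p under 0.05 (323 in the first). DESeq2 called 69 to 113 genes at an adjusted p under 0.05 in the 6 comparisons, and no member was among them. Standard errors of Ldha and Ldhb lay between 0.21 and 0.29 on the log2 scale, against 1.05 and above for Slc16a4, Slc16a3, Slc16a7 and Slc16a14. For Bsg they lay between 0.29 and 0.47. For Slc16a1 they were 0.26 to 0.31 contralaterally but 0.90 to 1.06 ipsilaterally.

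**Figure D3:**
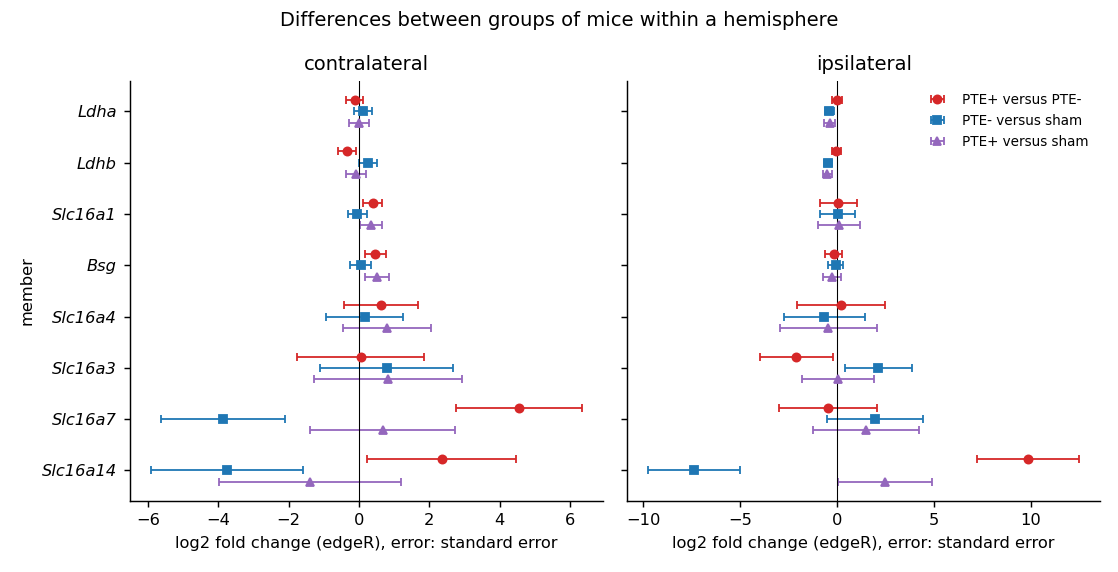
Log2 fold changes of the 8 members between groups of mice, with standard errors, in contralateral (left) and ipsilateral (right) libraries from edgeR. The x axes differ in range; Ldha and Ldhb lie within 0.5 of 0 in all 6 comparisons, while the errors of Slc16a4, Slc16a3, Slc16a7 and Slc16a14 are 1.05 or more.

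Slc16a4, whose encoded transporter has no settled substrate in brain, was lower on the ipsilateral side in 15 of 17 mice. Only 0.133% of the 15731 genes tested were lower in TPM in at least 15 of the mice, and Slc16a4 had the second smallest exact p among them. In PTE+ mice a8_10, a9_17, a9_18 and a9_19 it was at 34.50, 13.12, 25.97 and 8.84 TPM contralaterally and at 14.54, 10.24, 0.00 and 0.00 TPM ipsilaterally. In the 8 PTE- mice with both sides it was at 0.00 to 58.63 TPM contralaterally and at 0.00 to 15.10 TPM ipsilaterally, and all but mouse a9_15, with no more than 2 counts on either side, were lower ipsilaterally. In sham mice a8_15, a8_16, a9_9, a9_10 and a9_11 it was at 10, 25.42, 5.35, 17 and 11.71 TPM contralaterally and at 7.49, 4.74, 0.00, 22.39 and 2.53 TPM ipsilaterally, so that 4 of 5 mice without an impact had the lower level on the operated side too. In 7 mice the transcript was above the limit of 3 counts only contralaterally, in none only ipsilaterally, and in 9 on both sides.

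The mean within-mouse difference was -2.01 on the log2(CPM + 1) scale (SD 1.55, n = 17 mice, exact sign-flip permutation p = 0.000107). Adjusted over all 15731 genes this exact p was 0.60, and no gene passed an adjusted 0.05 in it, with 775 genes (4.93%) at an unadjusted p under 0.05. Slc16a4 and Bsg were the 2 of 8 members there, both lower ipsilaterally, as were 3.3% of all genes at that p. By group the exact permutation p was 0.0156 in PTE- (8 mice, smallest possible 0.00781), 0.125 in PTE+ (4 mice, the smallest possible) and 0.188 in sham mice (5 mice). The difference was -1.99 in the 6 mice with the name prefix a8 (exact p = 0.0312, the smallest possible) and -2.01 in the 11 with the prefix a9 (exact p = 0.00488). Without mouse a8_11 it was -1.88 over all mice (SD 1.51, n = 16, exact permutation p = 0.000214) and -1.86 in PTE- mice (n = 7, exact permutation p = 0.0312). In edgeR the log2 fold change over all mice was -1.56 (SE 1.03, p = 0.141), -1.51 (p = 0.157) without mouse a8_11, and -4.26 (p = 0.0263) with the mouse as a block. The side difference did not differ detectably between injured and sham mice (-0.97, SE 2.26, edgeR p = 0.670, exact permutation p = 0.270) or between PTE+ and PTE- mice (0.13, SE 2.55, edgeR p = 0.958).

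The comparison over all mice was added after the values had been seen. The side difference of Slc16a4 went with the side difference in the number of genes with a count (rho = 0.61, n = 17 mice). The 7 mice with the transcript above the limit only contralaterally were the same 7 of the 17 that had fewer such genes ipsilaterally. Over libraries its rho with that number was 0.75 ipsilaterally (n = 17) and 0.003 contralaterally (n = 20). With the number of genes as a covariate the edgeR estimate was -2.62 (p = 0.0742). Against the side difference of the endothelial sum the correlation was -0.44. The part of either in the result was not tested. Between groups of mice within a hemisphere Slc16a4 had edgeR p of 0.539 or more. The study listed it as upregulated in ipsilateral PTE+ against PTE-, at an unadjusted p. There its log2 fold change was 0.22 (SE 2.26, edgeR p = 0.925, exact permutation p = 0.927), and 0.24 in DESeq2 (p = 0.916). The transcript was above 3 counts in 2 of 4 PTE+ and 3 of 8 PTE- libraries of that side.

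Bsg, at 1917 TPM ± 927 (SD, n = 37) the 46th highest gene, was the other member that leaned to the contralateral side. It was lower ipsilaterally in 14 of 17 mice, as were 0.661% of all genes in at least that many. In PTE+ mice a8_10, a9_17, a9_18 and a9_19 it was at 5733.65, 3117.95, 1235.80 and 1528.09 TPM contralaterally and at 3066.42, 1577.35, 1264.94 and 691.66 TPM ipsilaterally. In PTE- mice with both sides the contralateral range was 1027.70 to 3098.59 TPM and the ipsilateral range 779.93 to 2811.69 TPM, with mouse a8_11 alone higher ipsilaterally. In sham mice a8_15, a8_16, a9_9, a9_10 and a9_11 it was at 2812.72, 1639.39, 1944.79, 2087.67 and 1423.01 TPM contralaterally and at 1856.56, 1589.73, 1999.93, 1709.52 and 1142.75 TPM ipsilaterally. The ranges of the sides overlapped in each group.

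The mean within-mouse difference of Bsg was -0.47 (log2, SD 0.65, n = 17 mice, exact permutation p = 0.00897, 0.963 when adjusted over all genes). edgeR gave -0.41 (SE 0.23, p = 0.0767) without the mouse as a block and -0.47 (p = 0.00451) with it, and -0.56 (p = 0.0145) without mouse a8_11 and without the block. The exact permutation p without that mouse was 0.000214 (-0.57, n = 16 mice, lower ipsilaterally in 14). In PTE+ mice the difference was -0.87 (SE 0.47, edgeR p = 0.0728) and -0.81 with the block (p = 0.0144), and in PTE- mice -0.34 (SE 0.33, edgeR p = 0.311), -0.66 (p = 0.0516) without mouse a8_11 and -0.49 with the block (p = 0.0342). In sham mice it was -0.17 (SE 0.42, edgeR p = 0.691). By group the exact permutation p of Bsg was 0.25 in PTE+ (smallest possible 0.125), 0.141 in PTE- and 0.188 in sham mice. In PTE- mice without a8_11 the exact permutation p was 0.0156, the smallest possible. The share of all genes at an unadjusted p under 0.05 with the block is not given beside these values. The side difference of injured against sham mice was -0.44 (SE 0.51, edgeR p = 0.392), so a difference between them was not detected. Within the a8 mice the exact permutation p was 0.531 (6 mice), and within the a9 mice 0.00391 (11 mice). Of the a8 mice, a8_11 alone was higher ipsilaterally, and all the others were lower. The a8 mice were not tested without a8_11, so their exact p does not decide whether the difference was absent there.

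**Figure D4:**
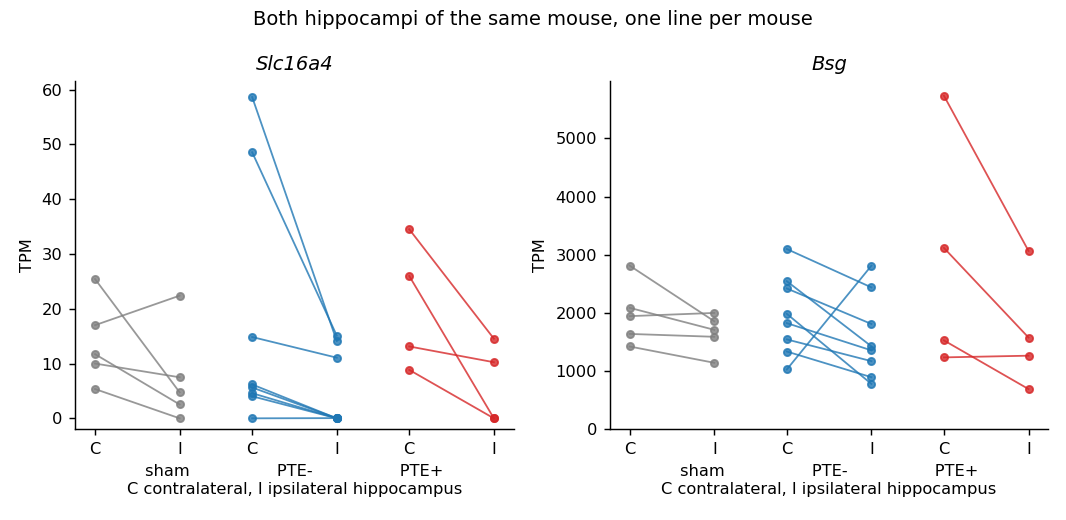
TPM of Slc16a4 and Bsg in the contralateral (C) and ipsilateral (I) hippocampus, with a line for each of the 17 mice, by group. For Slc16a4 15 of the 17 lines slope down and for Bsg 14, with 4 of 5 in sham mice for each.

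Of 8 sets of cell type markers Bsg had its highest correlation with the endothelial one in both hemispheres. Its rank correlation with their summed TPM was 0.83 over the contralateral (n = 20) and 0.89 over the ipsilateral libraries (n = 17), where the median over all genes was -0.01 and -0.03. It was -0.29 and -0.06 with the astrocyte sum. The 3 genes whose CPM was most like that of Bsg over the contralateral libraries were Car4 (rho = 0.91), a carbonic anhydrase at the membrane of brain capillaries, Ly6a (0.88) and Ly6c1 (0.87), both of endothelium, and these held ipsilaterally at 0.78, 0.93 and 0.90. Ly6c1 is itself one of the 7 markers. The endothelial sum was lower ipsilaterally in 13 of the 17 mice, at a mean of 827 TPM ± 610 against 1423 TPM ± 1246, and the side differences of Bsg and of the sum had a rho of 0.72 (n = 17). The side differences of Bsg and of 4 red cell markers had a rho of 0.72 as well, and that red cell sum was lower ipsilaterally in 11 of 17 mice, while over libraries its correlation with Bsg was 0.25 and 0.19. The part of endothelial or red cell RNA in the level of Bsg was not tested.

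Between groups of mice Bsg was highest in contralateral PTE+ mice, 2881 TPM ± 1785 (n = 5), against 1903 TPM ± 644 in PTE- (n = 10) and 1982 TPM ± 532 in sham mice (n = 5). The endothelial sum was highest in PTE+ mice too, at 2362 TPM ± 1968 against 1094 TPM ± 562 in PTE- and 1050 TPM ± 529 in sham mice. For PTE+ against PTE- the log2 fold change of Bsg was 0.46 (SE 0.29, edgeR p = 0.126, exact permutation p = 0.398). It came to 0.67 (edgeR p = 0.0259) without PTE+ mouse a9_18 and to 0.65 (edgeR p = 0.0430) without PTE+ mouse a9_19. These 2 PTE+ mice had the lowest Bsg levels there, and also the lowest endothelial sums. It came to 0.07 (edgeR p = 0.800) without PTE+ mouse a8_10, which had the highest of both. Leaving out a library with an extreme Bsg level moves the fold change by itself, so these fits say nothing about endothelial RNA. Ipsilaterally the fold change of Bsg was -0.17 (SE 0.43, edgeR p = 0.696), and 0.16 (edgeR p = 0.664) without mouse a8_11.

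**Figure D5:**
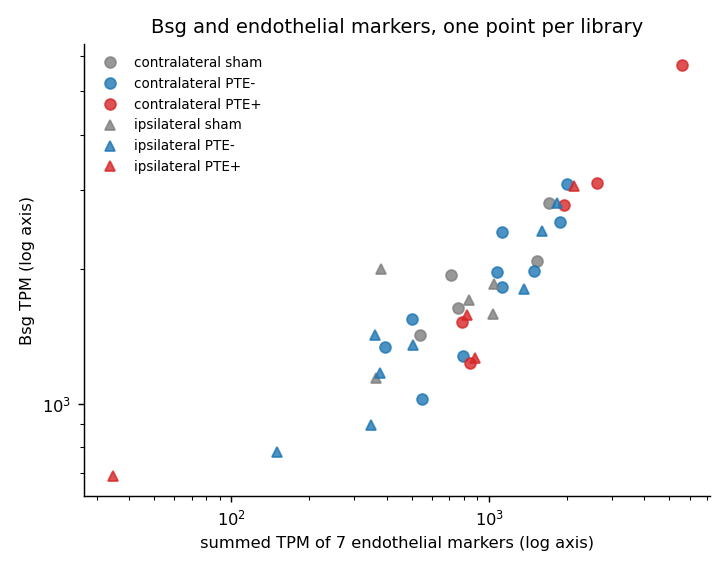
Bsg TPM against the summed TPM of 7 endothelial markers, both on log axes, with a point for each of the 37 libraries (circles contralateral, triangles ipsilateral). The points run from the ipsilateral library of PTE+ mouse a9_19 (34.6 and 691.66 TPM) to the contralateral library of PTE+ mouse a8_10 (5598 and 5733.65 TPM).

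The likeness search gave less even values for the others. The 3 genes most like Ldhb over the contralateral libraries were Eif3i, Psmb3 and Cops6 (rho = 0.87, 0.87 and 0.86), which encode subunits of a translation initiation factor, the proteasome and the COP9 signalosome, with 0.42, 0.69 and 0.55 ipsilaterally. For Ldha they were Notch4, Gyg and Fnta (0.75, 0.74 and 0.73; 0.06, 0.28 and 0.41 ipsilaterally), for Slc16a1 Mgp, Mccc1 and Bmper (0.78, 0.77 and 0.75; 0.20, 0.34 and 0.23) and for Slc16a4 Zzz3, Arrdc1 and Spred3 (0.88, 0.83 and 0.81; 0.42, 0.34 and 0.04). The search ran over 10790 genes and 20 libraries, and most of these values did not carry over to the ipsilateral libraries.

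Around the members, 46 further genes of lactate and pyruvate handling were read in the same fits. In the 11 comparisons 40 to 42 of them were tested, with medians of log2 fold changes between -0.21 and 0.16 (all genes -0.05 to 0.07). Of these genes 0 to 3 had an unadjusted p under 0.05, beside 1.23% to 4.56% of all genes, and none an adjusted one (edgeR). Eno1, the glycolytic enolase, was among those at an unadjusted p under 0.05 in 5 comparisons. It was lower in contralateral PTE+ (1376 TPM ± 167, n = 5) than in PTE- libraries (1595 TPM ± 245, n = 10), by -0.36 (log2, SE 0.12, edgeR p = 0.00682, exact permutation p = 0.00633). Ipsilaterally it was at 1315 TPM ± 189 in PTE- (n = 8) and 1474 TPM ± 126 in PTE+ (n = 4) against 1707 TPM ± 190 in sham mice (n = 5), with edgeR p of 0.00783 and 0.0134 (exact permutation p = 0.0179 and 0.0317), and both injured groups overlapped with sham. Between the hippocampi of PTE- mice it differed by -0.40 (SE 0.12, edgeR p = 0.00186, adjusted p = 0.545, exact permutation p = 0.0156).

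The side difference of Eno1 was lower in injured than in sham mice by -0.52 (SE 0.18, edgeR p = 0.00740, exact permutation p = 0.00226), where none of the 8 members and 2.4% of all genes were at an unadjusted p under 0.05. Ldha and Ldhb had the same sign in that comparison, -0.48 (SE 0.34, edgeR p = 0.168) and -0.47 (SE 0.34, edgeR p = 0.169). None of the members was at an unadjusted p under 0.05 in the side differences of PTE+ against PTE- mice (2.94% of all genes), nor between hippocampi of PTE+ (2.93%), sham (2.05%) or all mice (3.65%) in edgeR without the block. Car2, a carbonic anhydrase that helps monocarboxylate transport, was at 724 TPM ± 199 in ipsilateral PTE- (n = 8) and 991 TPM ± 279 in sham mice (n = 5; -0.57, SE 0.26, edgeR p = 0.0381, exact permutation p = 0.0901). Pgk1, phosphoglycerate kinase, differed by -0.41 (SE 0.18, edgeR p = 0.0334, exact permutation p = 0.0781) between the hippocampi of PTE- mice. Slc16a8 (-7.85, edgeR p = 0.0267), Slc16a10 (3.06, edgeR p = 0.0284) and Slc5a8 (-6.26, edgeR p = 0.0437) were the list genes at an unadjusted p under 0.05 between the hippocampi of sham mice. Their exact permutation p were 0.5, 0.3125 and 0.5, and their mean levels 0.602, 0.748 and 0.154 TPM over the 37 libraries. These sparse genes also made up the rest of the list at such a p in the side differences. They were Slc16a8 (-11.72, edgeR p = 0.0172, exact permutation p = 0.485) for PTE+ against PTE- mice, and 2 genes for injured against sham mice. These 2 were Slc5a8 (8.11, edgeR p = 0.0277, exact permutation p = 0.170) and Slc16a10 (-3.29, edgeR p = 0.0416, exact permutation p = 0.132).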

How the data were processed

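Astrocyte RNA of 37 libraries from 20 mice was read from the expected counts and the TPM that the authors deposited per gene identifier. Per the submitters' notes reads were trimmed with Trim Galore 0.6.4 and quantified on mm10 with RSEM 1.2.28 and Bowtie2 2.4.1, with DESeq2 1.36.0 for testing. The annotation release is not given in the sources used here. RSEM spreads reads shared by near-identical copies, so that values of Ldha, which has pseudogenes, carry that uncertainty. Slc16a1 overlaps sense intronic genes and Slc16a7 overlaps genes on the other strand, none of which are in the tables. How reads of such overlaps were counted is not known here. The deposited expected counts were whole numbers, and TPM was used for levels only. Symbols and positions came from GENCODE M21 and promoters from RefSeq, and 21856 of 21975 identifiers had a symbol.

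Groups were taken from the labels. Tests used edgeR 4.0.16 (quasi-likelihood, TMM, filterByExpr, R 4.3.3) with Benjamini-Hochberg adjustment over all genes tested, within each hemisphere and, for sides, over the 17 mice with both. Exact permutation tests, all 2-sided, used log2(CPM + 1). A gene at or below 3 counts in a library was at the counting limit, which covers counting error only. limma 3.58.1 and DESeq2 1.42.0 served as alternatives, beside other scaling, no filter, covariates, single groups alone and each mouse left out. The edgeR and sign-flip steps were tested on simulated data. The simulated counts varied less between libraries than edgeR fitted for the real ones. Sides were simulated with the mouse as a block. The edgeR check therefore does not cover the spread of these data or the side fits without the block.

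The members, lists and tests were chosen with earlier results of these data known. Named were all members, at most 3 list genes per comparison with the smallest unadjusted p under 0.05, and the 3 genes most like each member with a median of at least 10 CPM, and leading cell type markers. Sides of a mouse share its name in the labels and so its animal. Over 10332 genes the correlation of their deviations from the group means had a median of 0.08 (-0.05 to 0.37, 17 pairs), against -0.0033 for other mice. Libraries of a group came from mice with separate names, so p-values between groups within a hemisphere measure the spread between mice. The edgeR fits of sides without the mouse as a block treated both libraries of a mouse as independent. The sign-flip tests used the differences within mice. What the prefixes a8 and a9 of the mouse names mark is not given in the sources used here.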

Additional observations from a re-analysis of the deposited data

Results flagged for a closer look

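Dixon's criterion was applied to 48 groups of 4 to 10 libraries (8 members in 6 groups). By chance it flags about 1 in 20 groups of normally distributed values, a rate that does not hold for genes with many libraries at 0. In 8 groups 1 library stood apart from the rest. Slc16a1 was low in 3 of them: 14.37 TPM in the contralateral library of PTE- mouse a8_11 (the others 47.24 to 95.23), 0.03 TPM in its ipsilateral library (44.83 to 104.3) and 0.74 TPM in the ipsilateral library of PTE+ mouse a9_19 (59.91 to 120.27). Both hemispheres of mouse a8_11 were therefore the lowest of their groups for the leading transporter, at 2455 and 5 counts, while its Ldhb was the highest of all contralateral libraries.

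Slc16a7 was high in 3: 0.3 TPM in contralateral PTE- mouse a9_13 (the others up to 0.11), 12.8 TPM in ipsilateral PTE+ mouse a8_10 (up to 0.09) and 2.53 TPM in ipsilateral sham mouse a9_11 (up to 0.01). Slc16a14 was high in 2: 5.77 TPM in contralateral PTE+ mouse a9_19, where the other libraries were listed at 0, and 0.03 TPM in ipsilateral PTE- mouse a9_14, which rests on 3 counts and is at the counting limit.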

How the results depend on the processing

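The values in this paragraph are numbers of members at an unadjusted p under 0.05, the reported number in brackets. The share of all genes under each setting is not given beside them, so they describe stability only. For contralateral PTE- against sham (1) limma on log2(TPM + 0.1) gave 2 and a covariate for the genes detected per library 0. For ipsilateral PTE+ against PTE- (1) the 2 groups alone gave 0. For ipsilateral PTE- against sham (2) RLE scaling, DESeq2, the detected-gene covariate and the name prefix each gave 1, and limma with either pseudocount and the 2 groups alone 0. Between the hippocampi of PTE- mice (2) DESeq2, limma with either pseudocount, the covariate and the replicate block each gave 1. For PTE+ mice (0) limma on log2(TPM + 1), the covariate and the replicate block gave 1. For the side difference of PTE+ against PTE- (0) DESeq2 and the covariate gave 1. Over all mice (0) limma and the covariate gave 1 and the replicate block 2. The 4 exact tests under 0.05 of 88 became 2 of 88 within a9 mice. Within a8 mice 56 of these tests could be run, without the comparison over all mice, and 0 came under 0.05. Their groups were too small for any exact p to do so, so that 0 decides nothing. With 1 mouse left out the counts ranged from 0 to 3 for contralateral PTE+ against PTE-, 0 to 2 for PTE- and 0 to 1 for PTE+ against sham, and ipsilaterally from 1 to 3 for PTE- and 0 to 1 for PTE+ against sham, while sides gave 1 to 2 in PTE- mice and 0 to 1 in sham, PTE+ and all mice and in both side differences.

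Among the single values recomputed, signs turned for log2 fold changes of PTE+ against PTE- near 0: Ldha contralaterally (0.0243 and 0.0244 with limma on log2(TPM + 1) and log2(TPM + 0.1); -0.24 to 0.0413 with 1 mouse left out) and ipsilaterally (-0.00571 with RLE and -0.00518 with DESeq2; -0.0800 to 0.14), and, ipsilaterally, Ldhb (0.0193 without the filter, 0.17 with limma, either pseudocount; -0.11 to 0.13), Slc16a1 (-0.31 and -0.19 with limma; -0.36 to 0.48) and Bsg (0.00508 with the covariate; -0.72 to 0.16). The cause was not tested. Of the other single values under other settings, 133 kept direction and side of the threshold, 19 lost it and 10 gained it. Over all genes DESeq2 gave 85, 89 and 91 adjusted calls contralaterally for PTE+ against PTE-, PTE- against sham and PTE+ against sham, where edgeR gave 1, 0 and 0, and 113, 69 and 94 ipsilaterally, where edgeR gave none. Between sides and in side differences it gave 139 to 272 where edgeR gave none. No member was among them (smallest adjusted p = 0.120). Slc16a3, Slc16a4, Slc16a7 and Slc16a14 were above 3 counts in 27, 27, 16 and 11 of 37 libraries.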

Other observations

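Outside the 8 members, the family was uneven in level. Slc16a11 (44.3 TPM ± 61.7, SD, n = 37; 0 to 339.9) exceeded the mean of Slc16a4, while Slc16a5 was listed at 0 in all 37 libraries. Ldhd, the mitochondrial D-lactate dehydrogenase, was at 15.8 TPM ± 12.3, and Ldhc, the testis form, was listed at 0. Embigin (Emb), the chaperone that serves MCT2, was at 7.67 TPM ± 11.8, far under Bsg. The lactate receptor gene Hcar1 was above the counting limit in 18 of 37 libraries. On the mitochondrial side Mpc1, a subunit of the pyruvate carrier, was at 612 TPM ± 191, and the ketone body enzymes Oxct1 and Bdh1 were at 308 TPM ± 93.6 and 118 TPM ± 45.9. These are levels per length over all libraries, with no comparison between groups.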
